A study of Mus musculus with 6 samples.

Results

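The circadian clock genes described here are Arntl, Clock, Per1, Per2, Per3, Cry1, Cry2, Nr1d1, Nr1d2 and Dbp. They were taken by gene name from a table of 33924 names, all 10 were found, and all 10 passed the filter on low counts that left 20001 genes for testing. The libraries are bulk RNA sequencing of total RNA from FVB/NJ mice, an inbred strain. Normal lung of mice given saline was compared with lung tumours of mice given the carcinogen urethane (1 g per kg, intraperitoneally), with 3 libraries in each group and harvest at 6 months. The control libraries carry the replicate numbers 1, 2 and 3 and the tumour libraries 1, 2 and 4. No hour of harvest is given in the sources used here, and clock transcripts vary with the time of day. Neither the dissection of the tumours nor a separate animal for each library is stated in the labels, so p-values measure the spread between these libraries, which may be partly technical.

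The mammalian clock is a feedback loop of transcription. BMAL1 (the product of Arntl) pairs with CLOCK, binds E-box sequences and switches on the Per, Cry, Nr1d and Dbp genes; PER and CRY proteins then inhibit the pair. The nuclear receptors REV-ERBα and REV-ERBβ (Nr1d1 and Nr1d2) repress Arntl through ROR elements, which RORα and its relatives activate, so that in healthy tissue Arntl peaks when Dbp and Nr1d1 are low. DBP and its relatives TEF and HLF activate genes through D-boxes, which NFIL3 represses. In lung, the clock of airway club cells is known to time inflammatory responses.

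Library totals ran from 38996532 to 62336537 counted reads, and 3 reads correspond to 0.0456 to 0.0815 CPM (reads per 1000000 after TMM scaling, which evens out composition between libraries). Tumour replicate 2 stood apart in sex-linked transcripts, with 3360 CPM of Xist and at most 0.216 CPM of 4 Y-linked genes, whereas Xist reached no more than 32.9 CPM in the other 5. Surfactant and other markers of alveolar type 2 cells were present in every library, with a summed level of 9921 to 16460 CPM in control lung and 28562 to 65068 CPM in tumours.

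Short stretches of promoter sequence are shown for some of the genes in which letters match the elements named above. The windows run from 250 bases before to 50 bases after each RefSeq transcription start (GRCm38.p6), and 9 of the 10 clock genes had at least 1 window. Both strands were searched for the E-box CACGTG, its variant CACGTT, the D-box TTATGNAA and the ROR elements TAGGTCA and TAGGTTA; no pair of these motifs can match at the same position. Matched letters are in capitals, and every stretch is written 5′ to 3′ on the strand of its gene.
Arntl, chr7:113207495-113207521, plus strand: ggtcggaaagTAGGTTAgtggtgcgac
Arntl, chr7:113207531-113207557, plus strand: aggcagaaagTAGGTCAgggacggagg
Nfil3, chr13:52981040-52981071, minus strand: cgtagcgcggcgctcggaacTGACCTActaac
Per1, chr11:69098763-69098808, plus strand: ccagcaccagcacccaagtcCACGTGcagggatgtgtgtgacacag
Per1, chr11:69098905-69098948, plus strand: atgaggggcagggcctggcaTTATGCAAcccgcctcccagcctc
Per3, chr4:151044796-151044890, minus strand: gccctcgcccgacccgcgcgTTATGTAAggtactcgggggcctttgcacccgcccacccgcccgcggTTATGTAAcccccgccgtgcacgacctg
Cry1, chr10:85185089-85185153, minus strand: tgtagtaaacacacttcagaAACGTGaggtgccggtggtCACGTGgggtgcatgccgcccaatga
Nr1d1, chr11:98775380-98775425, minus strand: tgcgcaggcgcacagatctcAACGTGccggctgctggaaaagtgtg
Ciart, chr3:95882247-95882364, minus strand: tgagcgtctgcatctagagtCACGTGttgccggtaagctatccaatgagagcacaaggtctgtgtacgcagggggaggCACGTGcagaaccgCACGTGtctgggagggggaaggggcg
Of the 9 clock genes with a window, only Arntl held ROR elements. It has 2 RefSeq starts: TAGGTTA begins 6 bases before and TAGGTCA 30 bases after the downstream one, and the same TAGGTTA lies 40 bases after the upstream one. Over all 32851 windows in the table, TAGGTCA occurs in 2.61% and TAGGTTA in 1.44%. Per gene these shares are 2.97% and 1.7%. E-boxes were found in Per1 and Cry1, the CACGTT variant in Cry1, Cry2 and Nr1d1, and D-boxes in Per1 and Per3. The stretch of Cry2 is not printed. Clock, Nr1d2 and Dbp had windows but none of these motifs. Over all windows the E-box occurs in 7.15%, its variant in 4.68% and the D-box in 3.38%. Counted per gene, as for the clock genes, the shares are 8.09%, 5.44% and 3.99% of 27025 genes. Of 12 other clock factors described below, 11 had a window, and only Nfil3 and Ciart are printed. An E-box was found in 4 of them (Bhlhe41, Ciart, Tef and Cipc). The CACGTT variant was found in Rorb, a D-box in Timeless and a ROR element in Nfil3. A match describes the letters and not a bound site.

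In tumours, Arntl was higher and most of its targets were lower. Of the 10 clock genes, 1 rose (Arntl) and 7 fell (Per1, Per2, Per3, Cry2, Nr1d1, Nr1d2 and Dbp), while Clock and Cry1 did not pass (quasi-likelihood test of edgeR, with p adjusted by Benjamini-Hochberg over all 20001 genes and called under 0.05). Among all genes tested 42% passed, 18.1% as higher and 23.8% as lower. Per1, Per2, Per3, Nr1d1 and Dbp passed and were at least 2-fold lower, as were 20.1% of all genes; Arntl passed and was at least 2-fold higher, as were 10.5%. The median log2 fold change was -0.92 over the 10 clock genes and 0.01 over all genes tested. In 8 of the 10 no tumour value lay within the control range or the reverse, which held for 56% of all genes. Tumours were above controls in 1 (26.1% of all genes) and below in 7 (29.9%). These tumours are bulk samples, in which fewer cells of a type and less RNA per cell cannot be told apart.

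**Figure D1:**
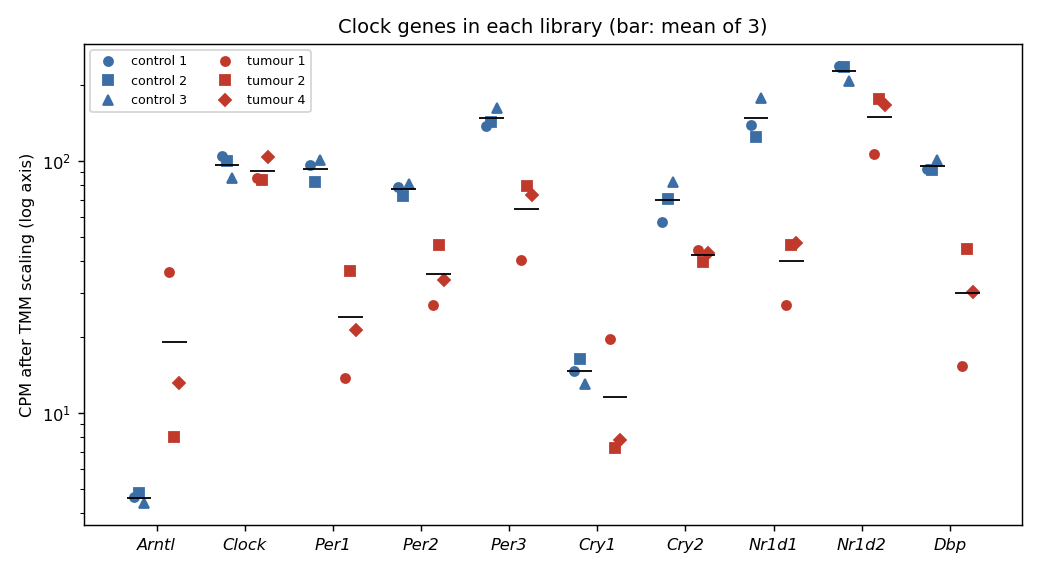
CPM after TMM scaling (log axis) of the 10 clock genes in each library, with a bar at the mean of each group of 3. Arntl is above the controls in all 3 tumours, and the tumour values of Per1, Per2, Per3, Cry2, Nr1d1, Nr1d2 and Dbp lie below every control; Clock and Cry1 overlap.

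Of the activators, Arntl rose and Clock did not pass. Arntl (chr7:120350979-120457636 in mm9, plus strand) was at 4.62, 4.82 and 4.39 CPM in control replicates 1, 2 and 3 and at 36.2, 7.99 and 13.1 CPM in tumour replicates 1, 2 and 4. The lowest tumour was 1.66-fold above the highest control, while the tumours differed among themselves by 4.53-fold. The log2 fold change was 2.05 ± 0.51 (SE, n = 3 per group, adjusted p = 0.0119). Tumour replicate 1 weighed on its size: without it the log2 fold change was 1.22, and without control replicate 3 the adjusted p was 0.0588. Clock, which encodes the partner of BMAL1, was at 104, 99.5 and 85.3 CPM in control lung and at 85.7, 84.4 and 104 CPM in tumours. The groups of Clock overlapped, with a log2 fold change of -0.08 and a 95% interval from -0.43 to 0.27 (adjusted p = 0.711). Per annotated exon base, Arntl stood at 0.134, 0.146 and 0.155 of the level of Clock in control lung. The ratio was 1.28, 0.286 and 0.383 in tumour replicates 1, 2 and 4.

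All 3 Period genes, which encode inhibitors of the BMAL1 and CLOCK pair, fell. Per1 was at 96.2, 82.3 and 100.5 CPM in control lung and at 13.7, 36.7 and 21.35 CPM in tumours. Its lowest control was 2.24-fold above its highest tumour, and its log2 fold change was -1.96 ± 0.33 (adjusted p = 0.00187). Per2 was at 78.7, 72.5 and 80.7 CPM in control lung and at 26.8, 46.5 and 33.6 CPM in tumours (log2 change -1.12 ± 0.21, adjusted p = 0.00316). Tumour replicate 2 was the highest tumour and replicate 1 the lowest in each of the 3 Period genes. Per3 was at 138, 143 and 162 CPM in control lung and at 40.3, 79.8 and 73.3 CPM in tumours (log2 change -1.19 ± 0.25, adjusted p = 0.00568). The ratio of Per1 to Per2 per annotated exon base was 1.27, 1.18 and 1.29 in control lung and 0.531, 0.819 and 0.66 in tumours. The balance between these paralogues thus differed without overlap.

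Of the Cryptochromes, the other inhibitors of the pair, Cry2 fell and Cry1 did not pass. Cry2 was at 57.1, 70.7 and 82.4 CPM in control lung and at 44.3, 39.7 and 43.1 CPM in tumours (log2 change -0.73 ± 0.17, adjusted p = 0.00836). Its tumour values lay close to each other, and the controls were more spread. Cry1 was at 14.7, 16.4 and 13.1 CPM in control lung and at 19.7, 7.27 and 7.81 CPM in tumours. Tumour replicate 1 was above every control and the other 2 tumours were below every control, and the log2 fold change of -0.34 had a 95% interval from -1.21 to 0.52 (adjusted p = 0.498). Without tumour replicate 1, Cry1 passed with a log2 fold change of -0.93 (adjusted p = 0.00238). The difference between the fold changes of Cry1 and Cry2 was not tested, and the ratio of Cry1 to Cry2 overlapped between the groups.

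Both REV-ERB genes, which encode the repressors of Arntl, fell. Nr1d1 was at 139, 125 and 178 CPM in control lung and at 26.7, 46.5 and 47.4 CPM in tumours. Every control was at least 2.64-fold above every tumour (log2 change -1.88 ± 0.25, adjusted p = 0.00061). Nr1d2 was at 238.5, 236 and 208 CPM in control lung and at 107, 176 and 167 CPM in tumours, also without overlap (log2 change -0.60 ± 0.21, adjusted p = 0.0469). This call was close to the threshold. It was lost when any of control replicates 1, 2 and 3 or tumour replicates 1 and 4 was left out (adjusted p from 0.0585 to 0.13). Leaving out tumour replicate 2 gave an adjusted p of 0.0388. Per annotated exon base, Nr1d1 stood at 0.937, 0.8475 and 1.38 of Nr1d2 in control lung and at 0.401, 0.425 and 0.455 of it in tumours. The exons of Nr1d1 share 263 bases with Thra, the thyroid hormone receptor α gene on the opposite strand, and reads there were counted for both names. Counts of Thra, which include any reads from this stretch, were also lower in tumours (log2 change -1.31 ± 0.18, adjusted p = 0.00061). What part of that fall came from Nr1d1 reads was not tested. Were the reads of Thra spread evenly over its exons, those in the shared stretch would equal 2.13% to 5.75% of the Nr1d1 reads of a library.

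Dbp, a transcription factor directly driven by BMAL1 and CLOCK and a common readout of their activity, fell. It was at 92.7, 91.7 and 101 CPM in control lung and at 15.3, 44.6 and 30.2 CPM in tumours. The controls differed by 1.1-fold at most and the tumours by 2.915-fold, without overlap (log2 change -1.66 ± 0.34, adjusted p = 0.00486). Dbp shares 491 exon bases with Sphk2, a sphingosine kinase gene on the opposite strand. Counts of Sphk2, which include any reads from the shared bases, were also lower in tumours (log2 change -0.84 ± 0.17, adjusted p = 0.00541). What part of that fall came from Dbp reads was not tested. With an even spread of Sphk2 reads, the shared stretch would equal 8.01% to 8.49% of Dbp reads in control lung, 27.3% in tumour replicate 1 and 11.9% to 12% in the other 2 tumours. Cry2 shares 295 bases with D930015M05Rik in the same way, with an even-spread share of 3.03% to 3.83%.

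Among the tumours, the library highest in Arntl was the lowest in 6 of the 7 genes that fell, all but Cry2. How many of all genes had this order was not counted. Over all genes tested, tumour replicate 1 also differed most from the other tumours. Chi-square of the counts, divided by its degrees of freedom, was 264 and 207 for it against replicates 2 and 4, and 59.7 between those. Arntl was highest in tumour replicate 1 and lowest in tumour replicate 2. Per1, Per2, Per3, Nr1d2 and Dbp were highest in tumour replicate 2 and lowest in tumour replicate 1, and Nr1d1 was also lowest in tumour replicate 1. The ratio of Arntl to Dbp per annotated exon base was 0.0502, 0.0529 and 0.0438 in control lung. It was 2.385, 0.181 and 0.438 in tumour replicates 1, 2 and 4. Over the 12306 genes whose log2 CPM averaged 2 or more, the highest library exceeded the lowest by a median of 1.26-fold among controls and 1.39-fold among tumours. For Arntl these values were 1.10-fold and 4.53-fold, for Per1 1.22-fold and 2.675-fold, and for Cry1 1.25-fold and 2.70-fold. Clock (1.23-fold) and Cry2 (1.12-fold) varied less among tumours than the median gene, whereas Cry2 (1.44-fold) and Nr1d1 (1.43-fold) varied more than it among controls. Whether the hours of harvest differed between libraries is not stated, and their part in these differences was not tested. Tumour replicate 2 also stood apart in sex-linked transcripts, as given above, and the part of that difference was not tested either.

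**Figure D2:**
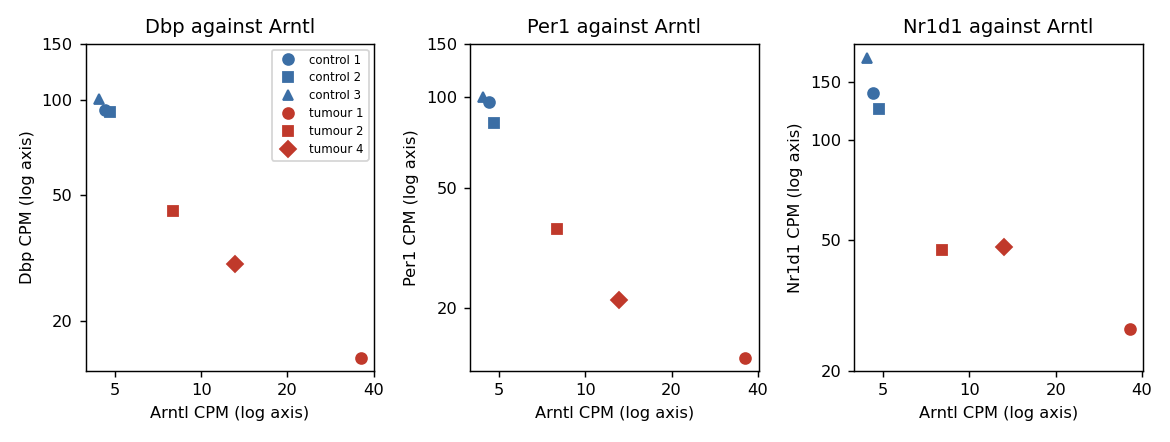
CPM of Dbp, Per1 and Nr1d1 (vertical, log axes) against CPM of Arntl (horizontal, log axes) in the 6 libraries. The 3 controls sit together at 4.39 to 4.82 CPM of Arntl with the highest levels of the other gene, and tumour replicate 1, at 36.2 CPM of Arntl, has the lowest.

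Compared per annotated exon base (RPKM, CPM per 1000 exon bases, SD over n = 3), the order of levels differed between the groups. All annotated exon bases of a gene enter its length, which can be longer or shorter than its longest transcript in a later GENCODE release. Dbp has 2945 exon bases against 1837, Per3 9608 against 5999 and Arntl 2925 against 3995. The order and separation of genes within a group depend on this length and were not recomputed with transcript lengths. In control lung Nr1d1 (47.2 ± 8.86 RPKM) and Nr1d2 (45.4 ± 3.42) were highest and overlapped, followed by Dbp (32.3 ± 1.71). Per1 (16.5 ± 1.69) and Per3 (15.4 ± 1.33) overlapped, as did Per2 (13.2 ± 0.73) with Cry2 (11.1 ± 1.998) and Cry2 with Clock (10.9 ± 1.12). Cry1 (4.88 ± 0.55) and Arntl (1.58 ± 0.07) were lowest and each was separate from its neighbours. In tumours Nr1d2 led with 29.9 ± 7.46 RPKM and did not overlap the next gene, Nr1d1 (12.9 ± 3.73). Each gene from there on overlapped the next in the order Clock (10.3 ± 1.22), Dbp (10.2 ± 4.97), Per3 (6.71 ± 2.21), Cry2 (6.70 ± 0.38), Arntl (6.54 ± 5.14), Per2 (6.10 ± 1.71), Per1 (4.25 ± 2.08) and Cry1 (3.84 ± 2.32).

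Among 12 other clock factors 3 rose, 5 fell and 4 did not pass, with a median log2 fold change of -0.33, where 18.1% of all genes tested rose and 23.8% fell. Npas2, a relative of Clock that also pairs with BMAL1, rose. It was at 0.652, 0.973 and 1.18 CPM in control lung and at 7.98, 2.39 and 4.45 CPM in tumours (log2 change 2.39 ± 0.48, adjusted p = 0.00461). Its tumours had the order of Arntl. Nfil3, the repressor at D-boxes, whose promoter stretch above holds a ROR element, was at 3.67, 2.67 and 2.58 CPM in control lung and at 13.01, 9.91 and 11.8 CPM in tumours (log2 change 1.96 ± 0.24, adjusted p = 0.000364). Bhlhe40, a repressor that competes for E-boxes, rose by 0.84 ± 0.14 (adjusted p = 0.00171), whereas its paralogue Bhlhe41 fell by 1.84 ± 0.47 (adjusted p = 0.0148), with 37.2 to 48.3 CPM in control lung and 3.74, 14.9 and 16.8 CPM in tumours.

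The 2 relatives of Dbp that also activate D-boxes both fell. Tef was at 256, 287 and 309 CPM in control lung and at 40.9, 80.6 and 61.0 CPM in tumours (log2 change -2.22 ± 0.25, adjusted p = 0.000249), with the tumour order of Dbp. Hlf was at 48.1, 49.0 and 49.8 CPM in control lung and at 3.58, 0.79 and 0.26 CPM in tumours, which fitted -4.96 ± 0.78 as the log2 change (adjusted p = 0.00132), or -6.46 without tumour replicate 1. Ciart, a BMAL1 repressor listed under its older name Gm129 and shown above with 3 E-boxes, was at 17.7, 15.9 and 13.8 CPM in control lung and at 1.52, 2.77 and 1.71 CPM in tumours (log2 change -2.98 ± 0.28, adjusted p = 0.000109). Its lowest control was 4.985-fold above its highest tumour.

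Of Rora and Rorb, whose products activate ROR elements, Rorb fell and Rora did not pass. Rora was at 134, 115 and 124 CPM in control lung and at 71.8, 117 and 107 CPM in tumours, with overlap and a 95% interval of its log2 fold change from -0.79 to 0.12 (adjusted p = 0.216). Rorb, at 1.33 to 2.19 CPM in control lung, had 1, 3 and 0 reads in tumour replicates 1, 2 and 4 (adjusted p = 0.000212). Arntl2, Timeless and Cipc (listed as 2310044G17Rik) also did not pass, at 0.21, -0.32 and -0.21 on the log2 scale. Timeless passed without tumour replicate 1, at -0.80 (adjusted p = 0.0151).

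**Figure D3:**
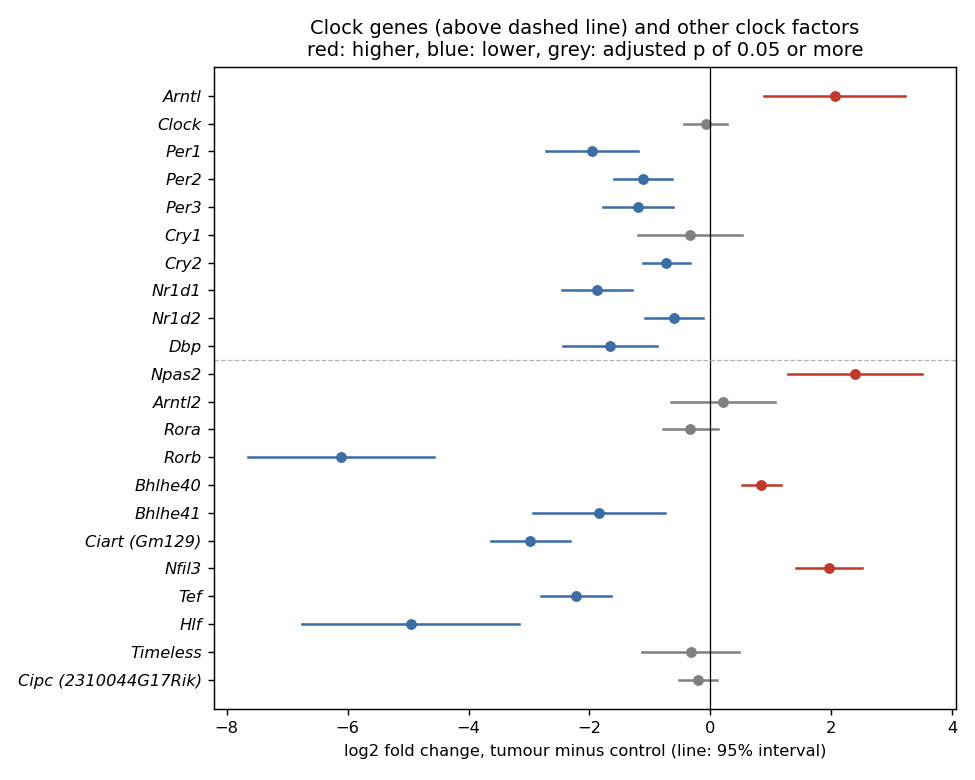
Fitted log2 fold change of tumour against control (point) with its 95% interval (line) for the 10 clock genes and 12 other clock factors, coloured by the edgeR call. Arntl, Npas2, Nfil3 and Bhlhe40 lie to the right of 0 and passed, and 12 genes lie to the left and passed. The fitted value of Rorb, with 1, 3 and 0 reads in tumours, depends on the prior count.

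Genes that act on the stability of clock proteins formed a further list. Of its 10 kinases, ubiquitin ligase parts and deubiquitinases, 1 rose, 2 fell and 7 did not pass (median log2 fold change -0.11), a smaller share called than the 42% of all genes tested. Usp2, a deubiquitinase whose transcript cycles in many tissues, was at 15.5, 16.4 and 16.1 CPM in control lung and at 1.54, 1.98 and 2.02 CPM in tumours (log2 change -3.12 ± 0.21, adjusted p = 2.57e-05). Btrc, a ubiquitin ligase subunit that binds PER proteins, fell by 0.81 ± 0.19 (adjusted p = 0.00989). The gene that rose was Fbxw11, another ubiquitin ligase part, by 0.61 ± 0.14 (adjusted p = 0.0104). In tumours Fbxw11 was at 71.1, 85.4 and 91.6 CPM, and Btrc at 10.1, 12.7 and 14.3 CPM. The casein kinases Csnk1d and Csnk1e, which phosphorylate PER, stood at 0.15 and -0.25 on the log2 scale (adjusted p = 0.451 and 0.417).

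Of 11 coregulators of the loop, 5 rose and none fell (median 0.47), where 18.1% of all genes rose. Nono, an RNA-binding partner of PER, rose by 0.96 ± 0.18 (adjusted p = 0.003745) and its binding partner Sfpq by 0.74 ± 0.15 (adjusted p = 0.00516). Of 7 outputs under clock control 2 rose, 2 fell and 3 did not pass, against 42% of all genes called. Cdkn1a, a cell cycle inhibitor, rose from 12.7 to 13.7 CPM in control lung to 33.2 to 50.9 CPM in tumours (log2 change 1.68 ± 0.19, adjusted p = 0.000231). Por, the electron donor of cytochrome P450 enzymes, fell by 1.25 ± 0.21 (adjusted p = 0.00175).

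Genes related to signals that can reset the clock formed 2 further lists, and the signals themselves were not measured. Tsc22d3 is counted both in the first of these lists and among the outputs above. Of 7 glucocorticoid-related genes 6 fell and 1, Fkbp5, did not pass (median log2 fold change -1.15), where 23.8% of all genes fell. Zbtb16, a glucocorticoid-induced transcription factor, was at 61.9, 75.9 and 70.65 CPM in control lung and at 0.916, 3.84 and 1.06 CPM in tumours (log2 change -5.16 ± 0.55, adjusted p = 0.000193), and it was -6.13 without tumour replicate 2. Dusp1, a phosphatase induced by glucocorticoids and by stress, fell by 2.32 ± 0.30 (adjusted p = 0.000533). Of 7 CREB and immediate early genes 2 fell and 5 did not pass, a share near the 23.8% of all genes. Sik1, a kinase that limits CREB signalling to the clock, fell by 1.34 ± 0.17 (adjusted p = 0.000512). Fos had a log2 fold change of -0.77 ± 0.26 (adjusted p = 0.0414), a call lost without control replicates 1 or 2 or any 1 tumour library (adjusted p from 0.0573 to 0.138) and with limma-voom (0.0518). Its log2 change was -0.45 without control replicate 1.

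Markers of most other cell types also differed between the groups. All 8 endothelial markers fell, with a summed level of 3079 to 4130.5 CPM in control lung and 197 to 289.7 CPM in tumours. Of 8 club cell markers 7 fell, from 10137 to 16732 CPM in sum to 85.9 to 209 CPM. All 8 ciliated, 7 of 8 fibroblast, 6 of 6 smooth muscle, 6 of 8 alveolar type 1, 8 of 8 T and NK cell, 5 of 5 B cell, 6 of 6 neutrophil and 5 of 5 cardiac markers also fell, and 7 of 8 alveolar type 2 markers rose. The alveolar type 1 marker Aqp5 rose by 0.82 on the log2 scale. Macrophage markers were mixed: 5 of 8 did not pass, 2 fell and 1, Cd14, rose by 2.01 (median -0.02). No marker of these lists was at 0 in all 3 tumours. Per1, Per2, Per3, Nr1d2 and Dbp had their lowest and highest tumours in common with most marker lists. Arntl, Cry1 and Cry2 had the reverse order of tumours, and Clock and Nr1d1 had other orders. Tumour replicate 1, the library highest in Arntl, had the lowest sum of the 3 tumours in 9 of 12 lists, and tumour replicate 2, the highest in Per1, Per2, Per3, Nr1d2 and Dbp, had the highest sum in 11 of 12. Tumour replicate 1 had the lowest macrophage sum (171 CPM, against 464 and 397 CPM in tumour replicates 2 and 4) and the lowest alveolar type 2 sum (28562 CPM). The part of these cell types in the clock gene values was not tested.

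The genes with the pattern most like Arntl, by Pearson correlation of log2 CPM over the 6 libraries among 12306 genes, were Arl5b (0.996), Fam60a, Zfp606, Cd3eap and Cmas (0.994). Those most like Dbp were Pcgf5 (0.999), Ighg2c, Rap2a, Csf1r and Lrat (0.997). These values are descriptions of 6 points that fall in 2 groups. No other clock gene was among these nearest genes, which were taken by the highest positive correlation only. Over the same 6 libraries Dbp correlated with Per3 at 0.992, Per1 at 0.991 and Per2 at 0.989, and with Arntl at -0.986. With Clock and Cry1 it stood at 0.265 and 0.039.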

How the data were processed

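The deposited values are raw counts, 1 column per library, made by the authors with featureCounts 1.6.5 over the exons of GENCODE vM1, per the file headers. The same header shows that a read over several names was counted for each and that no strand setting was given, so antisense genes can share reads. STAR, limma, edgeR and R 3.6.0 are named in the submitters' processing notes, with 2 genome builds; gene positions are those of the deposited table, taken as mm9. A length column (exon bases) served for RPKM. Counts were tested with edgeR 4.0.16 in R 4.3.3: filterByExpr (minimum count 10), TMM, and the quasi-likelihood F test with group as the only term. Benjamini-Hochberg adjustment ran over all 20001 genes tested, with adjusted p under 0.05 called. Standard errors came from the F statistic. Libraries of a group differed by more than counting error (chi-square divided by its degrees of freedom, 59.7 to 264). The clock genes and the 22 lists were chosen with earlier results of these data known. Of 150 list entries, 146 matched by name and 4 by an older name. A result on a withheld item is not reported here.

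Named genes were all clock genes and 12 other clock factors, the 2 genes of each other pathway list with the smallest p, genes whose exons overlap those of a clock gene, and the 5 genes most correlated with Arntl or Dbp. Fbxw11, Csnk1d, Csnk1e, Tsc22d3, Fkbp5, Aqp5, Cd14, the correlations between clock genes and the share of reads over overlaps were added after the values were seen. Alternatives were DESeq2 1.42.0, limma-voom (limma 3.58.1), other scalings, filters and thresholds, each library left out, and a replicate block. Promoter sequences are from RefSeq (GRCm38.p6), matched by symbol; their coordinates were not combined with those in mm9.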

Additional observations from a re-analysis of the deposited data

How the results depend on the processing

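The 10 clock genes kept their direction in all 150 combinations of gene and alternative that gave a new estimate; the stricter threshold and the 2-fold test keep the estimate. Over all 170, 148 kept their side of the threshold, 21 lost a call and 1 gained one. DESeq2 and limma-voom each called 8 clock genes. Leaving out 1 library called 6 to 8 clock genes and 6421 to 9436 genes in all (2536 to 4210 higher and 3870 to 5226 lower). Against a 2-fold change, 2 clock genes (Per1 and Nr1d1) and 3965 genes passed, 1056 higher and 2909 lower. At an adjusted p under 0.01, 2073 genes were higher. Total-count scaling moved the median of all genes by -0.12 on the log2 scale. Upper quartile scaling and TMM without mitochondrially encoded genes each left 7 clock genes, without Nr1d2. Alternatives for genes outside the 10 were chosen after seeing the data.

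Numbers 1 and 2 occur in both groups. With the replicate block, 3 clock genes (Per1, Nr1d1 and Dbp) and 3641 genes passed, 1092 higher and 2549 lower, with 1 residual degree of freedom. Deviations from the group means correlated at -0.18 for number 1 and -0.01 for number 2. Deviations within a group cancel out, which constrains these values, so they cannot show whether the numbers mark pairs or batches. The reported fit did not take the numbers as pairs. With 3 libraries a group, exact permutation cannot go below p = 0.1.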
